A study of Mus musculus with 37 samples.

Results

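Public clonotypes are T cell receptor rearrangements that many individuals carry. In lymph node DNA of 37 mice, a clonotype was defined by its TRBV segment, its TRBJ segment and the amino acid sequence of its complementarity-determining region 3 (CDR3), and it was called public when at least 1 read of it lay in at least 19 of the 37 libraries. By this rule 2554 of 1002058 clonotypes (0.255%) were public. They were set against the 803728 clonotypes (80.2%) found in 1 library only. The number of libraries chose the public clonotypes, so their differences from 1-library clonotypes are given as descriptions with no test.

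A T cell receptor beta chain is assembled during T cell development by joining one V, one D and one J segment. Enzymes trim the segment ends and add untemplated bases at the junctions, and the CDR3, which contacts the peptide, spans the joins. Rearrangements that need few added bases, or whose amino acid sequence many nucleotide sequences encode, are known as convergent and arise repeatedly in different individuals.

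Each library came from the lymph node of 1 mouse, and genomic DNA was amplified, so a read stands for a rearranged gene. MMTV-PyMT mice, in which a mammary promoter drives a viral oncogene and tumors form in the mammary gland, made up 32 of the mice, and their treatment text describes them as female littermates randomized by tumor volume. PLX3397 (pexidartinib, an inhibitor of the macrophage receptor CSF1R) was given in chow at 40 mg/kg/day from 80 days of age, PTX at 10 mg/kg every 5 days from 85 days, and aPD-1 (clone RMP1-14, against an inhibitory receptor of T cells) from 87 days with a first dose of 1.0 mg and later doses of 0.5 mg at intervals of 5 days, with an isotype antibody as its control. The triple treatment is labelled PLX+PTX+aPD-1_R in 6 mice of d105 and 5 of d95, and PLX+PTX+aPD-1_NR in 4 of d105 and 3 of d95, called R and NR here. PLX+PTX was given to 6 mice of d105 and 3 of d95, and PTX to 2 of d105 and 3 of d95. The remaining 5 mice, of genotype FVBN and d105, form the group WTNT. The labels spell out neither R, NR nor WTNT. All of the MMTV-PyMT groups here received PTX, so no untreated tumor-bearing mice enter, and the WTNT mice differ from them in genotype as well as treatment. The label gives lymph node as the cell type, and T cell subsets were not separated.

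The d105 libraries held 1090573 to 2831566 reads and the d95 libraries 90648 to 917752, so day and depth cannot be told apart. The smallest, d95 NR replicate 1, held 2425 clonotypes, of which 201 were public. The pair of libraries most alike shared 10.2% of the nucleotide sequences of the smaller one.

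The following CDR3 nucleotide sequences show how public receptors were built. Capitals mark the bases that lie between the end of the V segment and the start of the J segment, and lower case marks the bases that the deposited boundaries place in V or J. A base inside a boundary can still differ from the segment, since forms of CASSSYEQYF with the same boundaries differ by 1 base. The first set shows 3 of the 25 public CDR3s of 10 residues, the shortest length, in which the boundaries leave no base between V and J.
TRBV4 TRBJ2-7 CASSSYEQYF, leading form: tgtgccagcagctcctatgagcagtacttc
TRBV4 TRBJ2-7 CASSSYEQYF, next form: tgtgccagcagctcttatgagcagtacttc
TRBV2 TRBJ2-5 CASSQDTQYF, leading form: tgtgccagcagccaagacacccagtacttt
TRBV24 TRBJ2-7 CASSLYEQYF, leading form: tgtgccagcagtctgtatgagcagtacttc
The next set holds receptors found in every library, each written by several nucleotide forms.
TRBV19 TRBJ2-7 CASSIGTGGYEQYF, leading form, TRBD1: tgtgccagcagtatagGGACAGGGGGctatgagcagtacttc
TRBV19 TRBJ2-7 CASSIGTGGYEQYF, next form, TRBD2: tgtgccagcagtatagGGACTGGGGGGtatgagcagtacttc
TRBV3 TRBJ2-7 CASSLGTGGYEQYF, leading form, TRBD2: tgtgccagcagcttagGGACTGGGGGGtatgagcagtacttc
TRBV3 TRBJ2-7 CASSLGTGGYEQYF, next form, TRBD1: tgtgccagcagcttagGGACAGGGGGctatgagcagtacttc
TRBV3 TRBJ2-7 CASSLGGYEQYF, leading form, TRBD1: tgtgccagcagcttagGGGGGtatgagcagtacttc
TRBV3 TRBJ2-7 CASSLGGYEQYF, next form: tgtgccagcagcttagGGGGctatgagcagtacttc
The next set is the public receptor with the most nucleotide forms.
TRBV1 TRBJ2-7, 14 residues, leading form, TRBD2: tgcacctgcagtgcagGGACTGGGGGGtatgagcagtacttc
TRBV1 TRBJ2-7, 14 residues, next form, TRBD2: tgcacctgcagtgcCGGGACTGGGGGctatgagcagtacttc
The last set holds receptors written almost wholly by 1 nucleotide form.
TRBV13-2 TRBJ2-5 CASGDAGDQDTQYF, TRBD2: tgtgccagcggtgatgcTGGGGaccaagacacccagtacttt
TRBV13-1 TRBJ1-2 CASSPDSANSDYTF, no D assigned: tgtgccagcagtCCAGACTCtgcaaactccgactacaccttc

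Public CDR3s were short. Their length ran from 10 to 16 residues with a mean of 13.5, and 74.3% had 12 to 14 residues, against 50.6% of the 1-library clonotypes, whose lengths ran from 4 to 46 with a mean of 14.3. CDR3s of 15 or more residues made up 19.6% of public and 46.0% of 1-library clonotypes, and no public CDR3 had 17 or more residues, against 6.23%. Averaged within each library, public CDR3s differed from 1-library CDR3s by -0.803 ± 0.042 residues (SD, n = 37 libraries), and were shorter in 37 of 37 libraries. The shortest length, 10 residues, had 25 public clonotypes, and the longest, 16 residues, had 43. The most widespread of the 43 joined TRBV5 to TRBJ2-2, in 28 libraries.

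**Figure D1:**
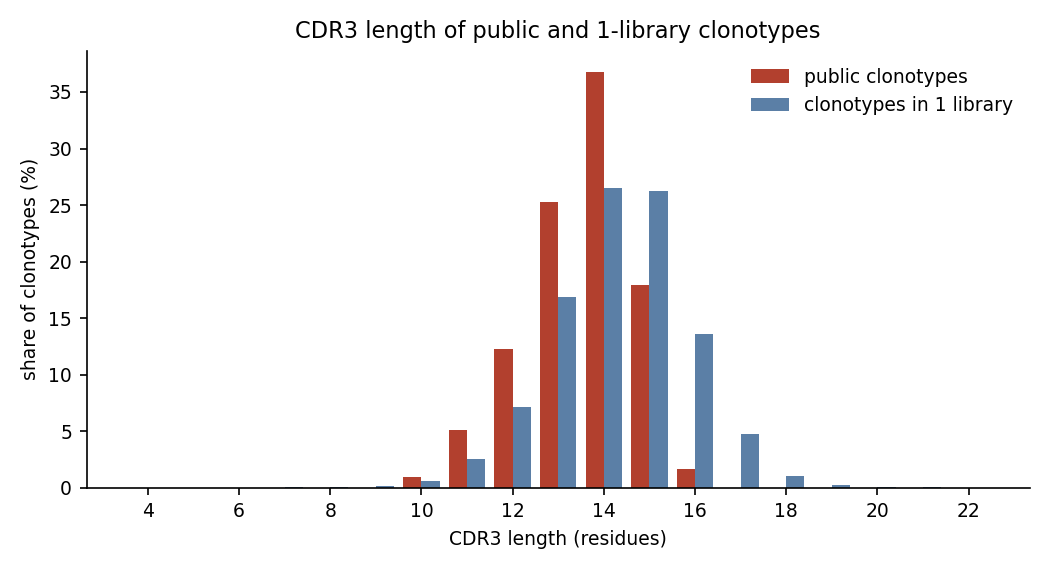
CDR3 length in residues (horizontal axis) against the share of clonotypes in percent (vertical axis), for public clonotypes and clonotypes in 1 library, up to 22 residues. Public CDR3s stop at 16 residues, while 6.23% of 1-library CDR3s have 17 or more.

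Public junctions held fewer bases. Per library, 7.02 ± 0.12 bases (SD, n = 37) separated the V end from the J start in public clonotypes and 11.5 ± 0.189 in 1-library clonotypes. Bases assigned to no segment numbered 1.78 ± 0.0567 against 4.69 ± 0.0596. Rearrangements in which the deposited boundaries left no base outside V, D and J made up 33.7% ± 1.78 of the public nucleotide sequences and 4.11% ± 0.252 of the 1-library ones, a gap seen in 37 of 37 libraries. Trimming was also lighter, with 1.94 ± 0.0310 against 3.22 ± 0.0346 bases removed from V and 2.45 ± 0.0495 against 3.74 ± 0.0652 from J.

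A D segment was assigned less often. The files assigned no D to 33.4% ± 1.33 of public and 18.4% ± 1.08 of 1-library sequences. TRBD1 was assigned to 28.5% ± 0.845 against 46.0% ± 0.819, and TRBD2 to 38.1% ± 1.31 against 35.5% ± 1.72, with each difference in the same direction in 37 of 37 libraries. Of the 2554 public clonotypes, 1357 (53.1%) had as their most widespread nucleotide form one with no base outside the segment boundaries, and in 144 (5.64%) that form had no base between V and J at all.

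Pooled over all libraries, several nucleotide forms encoded most public receptors. A public clonotype then had a median of 13 forms and at most 57, and 1906 (74.6%) had at least 10. Of the 1-library clonotypes, 97.9% had 1 form. Public clonotypes could gather forms from many libraries and 1-library clonotypes from 1 only. The rule that chose them thus favours this gap, and only counts within a library are alike for both. Within a library, public clonotypes had 1.65 ± 0.31 forms (SD, n = 37) and 1-library clonotypes 1.02 ± 0.00440, and 40.5% ± 14.6 against 1.98% ± 0.416 had more than 1 form. Public clonotypes also held more reads, with a median of 48.4 ± 17.4 per clonotype and library against 13.1 ± 2.92. Among clonotypes with 20 to 40 reads in a library, the forms were 1.42 ± 0.209 against 1.03 ± 0.00626, higher in 37 of 37 libraries.

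By median, further forms of public clonotypes held more reads relative to the leading form than those of 1-library clonotypes. Counted within libraries, public clonotypes had 44024 forms beyond the leading form, of which 46.9% differed from it by 1 base, with a median read ratio of 0.550 to the leading form. The 17705 further forms of 1-library clonotypes differed by 1 base in 86.3% and had a median ratio of 0.0769. No further form of either kind was both 1 base from its leading form and under 1% of its reads. The caller was not given, so whether such forms were merged before deposition is not known. No conclusion is drawn from their absence.

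Few nucleotide sequences of public clonotypes reached 19 libraries themselves. A form cannot lie in more libraries than its clonotype, so only the size of the gap is described. The public clonotypes comprised 35303 nucleotide sequences, and only 310 of these, from 270 public clonotypes (10.6%), lay in 19 or more libraries. The most widespread form of a public clonotype lay in a median of 10 libraries. The widest was the leading form of TRBV4 TRBJ2-7 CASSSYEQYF, in 36 libraries, followed by that of TRBV2 TRBJ2-5 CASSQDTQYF, in 34. Both are printed above and have no base between the V and J boundaries.

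The TRBV1 TRBJ2-7 receptor of 14 residues printed above had the most forms, 57 over 36 libraries, with 9.58 per library on average and up to 21 in 1 library. Its leading form lay in 30 libraries and the next in 28. TRBV1 TRBJ2-3 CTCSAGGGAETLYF followed with 51 forms, then a 15-residue receptor of the same segments with 44. TRBV3 TRBJ1-1 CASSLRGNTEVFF and TRBV3 TRBJ2-3 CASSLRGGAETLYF had 42 each. The leading form of the first had no base outside the V, D and J boundaries.

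J use leaned to TRBJ2-7. It made up 32.0% of public and 18.8% of 1-library clonotypes, and per library 33.1% ± 1.5 against 18.9% ± 0.721 (SD, n = 37), higher in 37 of 37. TRBJ2-5 (14.6% against 14.1%), TRBJ2-3 (13.7% against 11.5%), TRBJ2-1 (11.3% against 13.4%) and TRBJ2-4 (7.56% against 10.1%) came next among public clonotypes. The ratio of public to 1-library share was highest for TRBJ2-7 (1.70) and TRBJ2-3 (1.19). It was lowest for TRBJ1-5 (0.0881), with 5 public clonotypes, and TRBJ1-4 (0.208), with 19. The TRBJ2 cluster as a whole held 85.2% of public and 76.1% of 1-library clonotypes.

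V use leaned to TRBV1. It made up 26.1% of public and 13.8% of 1-library clonotypes, per library 26.9% ± 0.752 against 14.2% ± 1.04 (SD, n = 37), higher in 37 of 37. TRBV24 (17.1% against 15.8%), TRBV3 (16.1% against 12.6%), TRBV5 (14.6% against 10.2%) and TRBV2 (10.9% against 11.7%) followed. Among segments with at least 1% of 1-library clonotypes, ratios of public to 1-library share were highest for TRBV1 (1.89) and TRBV5 (1.43). At the other end, TRBV23 had 0 public clonotypes among 14180, and TRBV29 had 45, with a ratio of 0.221. TRBV4 supplied 4.66% of public clonotypes and 8.89% of 1-library clonotypes, although the public clonotypes with the highest normalised share are TRBV4 receptors.

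**Figure D2:**
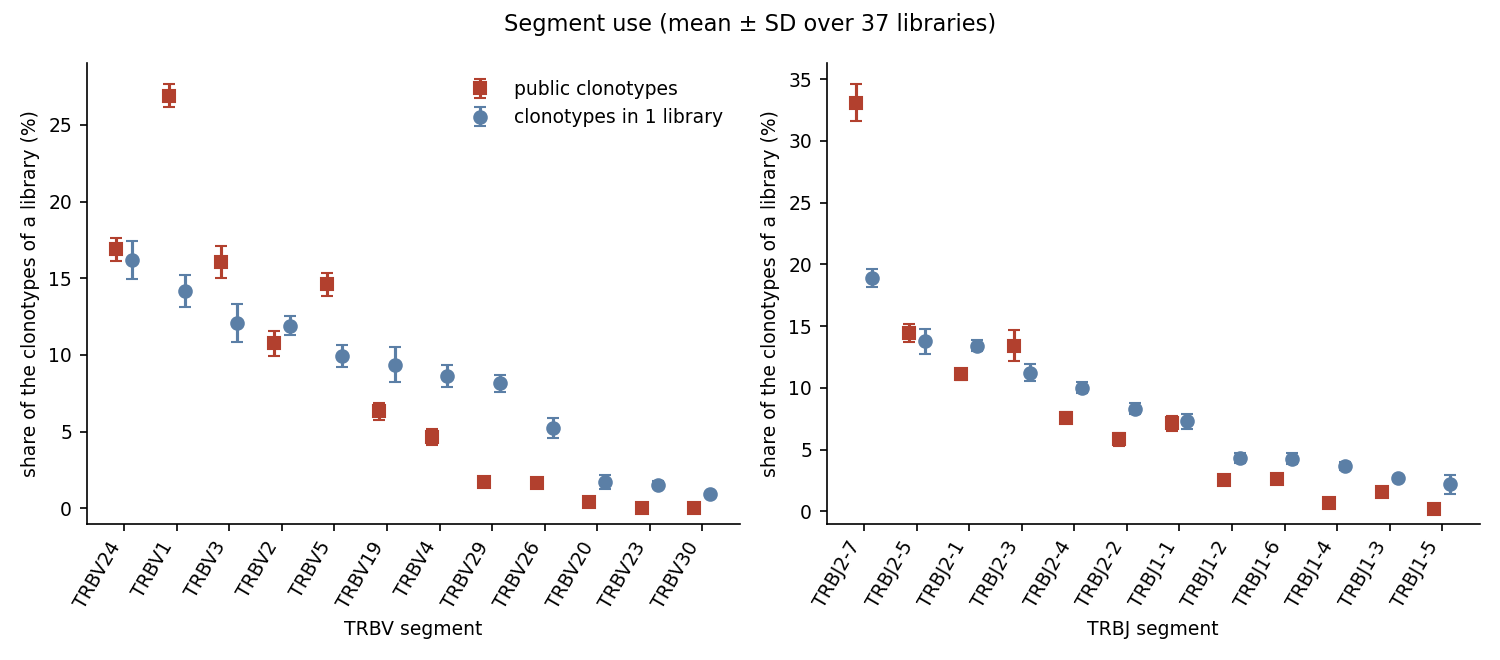
Share of the clonotypes of a library that use each TRBV segment (left) or TRBJ segment (right), in percent, as mean ± SD over 37 libraries, for segments with at least 0.5% of 1-library clonotypes. TRBV1, TRBV3, TRBV5 and TRBJ2-7 lie higher among public clonotypes in 37 of 37 libraries, while TRBV23 holds no public clonotype.

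The segments combined. Public clonotypes used 91 of the 243 V and J pairs seen, and the 5 fullest pairs (TRBV1, TRBV5, TRBV3 and TRBV24 with TRBJ2-7, and TRBV1 with TRBJ2-3) held 691 of them (27.1%), against 11.5% of 1-library clonotypes. TRBV1 with TRBJ2-7 alone held 170 and TRBV5 with TRBJ2-7 held 168.

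In the middle of the loop, after the first 4 and last 5 residues, public CDR3s had more glycine, 29.6% ± 0.412 of residues against 23.9% ± 0.577 (SD, n = 37). Alanine (10.8% against 7.49%) and glutamine (11.1% against 8.35%) were also higher. Residue 5 stays in this window, and in the named receptors it is alanine on TRBV1 and glutamine on TRBV2 and TRBV5. The V boundary covers its whole codon in some forms on these segments, and all but the last base in others. Of these segments, TRBV1 and TRBV5 were used more by public clonotypes and TRBV2 slightly less. How far segment use sets the residue shares was not tested. Arginine was lower, at 3.43% ± 0.148 against 7.56% ± 0.107, as were proline (2.06% against 4.63%) and histidine (0.106% against 1.38%). No public loop held a cysteine, against 0.126% of 1-library loop residues. Each of these gaps had the same direction in 37 of 37 libraries.

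Many public receptors lay 1 residue apart. Of the 2554, 2315 (90.6%) had another public clonotype of the same segments and length that differed by 1 residue. No such share for other clonotypes is set beside it, so it is not shown to be particular to public ones. The 2554 held 2190 distinct CDR3s, and 277 of these sat on at least 2 TRBV segments, which involved 633 public clonotypes. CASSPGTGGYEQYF was public on 6 segments (TRBV3, TRBV4, TRBV5, TRBV19, TRBV24 and TRBV29), and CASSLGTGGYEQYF on 5.

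The properties shifted in steps with the number of libraries. From clonotypes in 1 library through those in 2, 3 to 5, 6 to 9, 10 to 18, 19 to 27 and 28 to 36, mean length fell from 14.3 to 13.4 residues, and the bases between V and J fell from 11.5 to 6.83. Over the same steps the forms per library rose from 1.02 to 2.17 and the TRBJ2-7 share from 18.9% to 40.8%. The 3 clonotypes in all 37 libraries had 4.6 ± 2.0 forms per library and used TRBJ2-7, but held 9.62 ± 0.601 bases between V and J. In the leading forms of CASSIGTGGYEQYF and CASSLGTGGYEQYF these bases are 10 and 11 in number and all assigned to D. Clonotypes just inside and just outside the threshold were alike. The 413 in exactly 19 libraries had a mean length of 13.6 residues and a median of 11 forms, and the 477 in exactly 18 had 13.5 residues and 10 forms. Just inside were TRBV4 TRBJ2-7 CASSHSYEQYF and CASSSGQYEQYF, and just outside TRBV4 TRBJ2-7 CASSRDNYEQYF and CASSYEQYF, the 2 with the highest normalised share of each set. For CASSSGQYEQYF, 37.1% of its summed level came from d95 NR replicate 1.

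**Figure D3:**
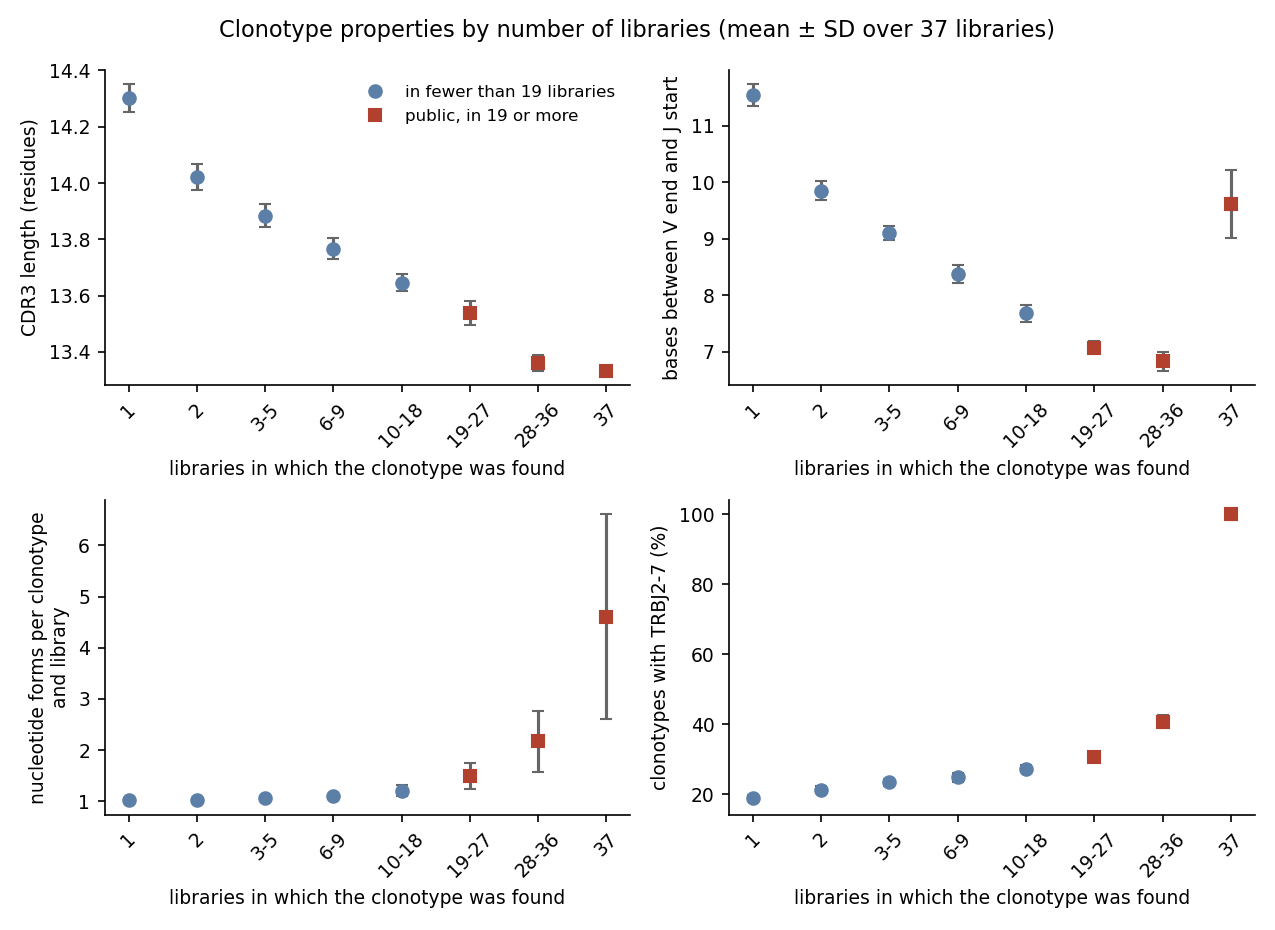
Mean CDR3 length in residues, bases between the V end and the J start, nucleotide forms per clonotype and library, and percent of clonotypes with TRBJ2-7 (vertical axes) against the number of libraries in which a clonotype was found (horizontal axes), as mean ± SD over 37 libraries. Length and junction bases fall and forms and TRBJ2-7 rise up to 36 libraries, and the 3 clonotypes in all 37 libraries return to 9.62 bases between V and J.

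The rule of 19 libraries itself spreads each public clonotype over several groups, so the counts that follow only describe the members. Most were missing from at least 1 of the 9 groups, while 824 (32.3%) were found in all 9. Each public clonotype was found in at least 1 d95 library, and 981 lay in 5 of 5 WTNT mice. No WTNT mouse held 2 of them. All 23 d105 libraries held 99, and all 14 d95 libraries held 4. A public clonotype lay in a median of 17 of 23 d105 and 6 of 14 d95 libraries, and 880 would have reached 19 from d105 alone. Since 23 of the 37 libraries are from d105, the rule itself draws on the deeper day. A library held 1185 to 2227 public clonotypes at d105 and 201 to 1541 at d95, and after thinning to 222369 reads, which left out d95 NR replicate 1, 1112 to 2052 and 859 to 1421.

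The public clonotypes took a similar share of every mouse's repertoire at d105, while the d95 mice varied more. The share is the sum over public clonotypes of the authors' normalised clone count, which rescales reads by V and J pair, as a percent of the library. At d105 it was 8.32% ± 0.41 in R mice (SD, n = 6), 8.34% ± 0.11 in NR (n = 4), 8.41% ± 0.38 in PLX+PTX (n = 6), 8.58% ± 0.38 in PTX (n = 2) and 8.24% ± 0.17 in WTNT (n = 5). At d95 it was 10.1% ± 0.39 in R (n = 5), 10.9% ± 0.44 in NR (n = 3), 11.02% ± 1.55 in PLX+PTX (n = 3) and 10.6% ± 0.029 in PTX (n = 3). The 4 comparisons at d105 had overlapping ranges and mean differences under 1 SD in normalised counts. As a share of clonotypes after thinning, PLX+PTX (3.65% to 5.207%, n = 6) lay just below PTX (5.210% to 6.33%, n = 2) at d105.

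At d95 the R mice, at 9.64% to 10.48%, lay below the NR mice, at 10.51% to 11.4%, with no overlap and a difference of -0.764 percentage points. In reads the same mice had 9.26% to 10.3% and 9.53% to 10.2%, which overlap, with a difference of -0.0528 points. The authors' nb clone counts kept the groups apart (9.18% to 9.95% against 9.99% to 10.43%), as did the share of clonotypes after thinning (5.71% to 6.57% against 6.77% and 6.94%, without the smallest NR library). The NR group includes the library of 90648 reads. Among PLX+PTX mice at d95, values ran from 9.68% to 12.7%, the widest spread of a group. Every d95 library had a higher normalised share than every d105 library (9.64% to 12.7% against 7.66% to 8.87%). In reads the days overlapped slightly (9.26% to 12.1% against 8.37% to 9.72%).

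**Figure D4:**
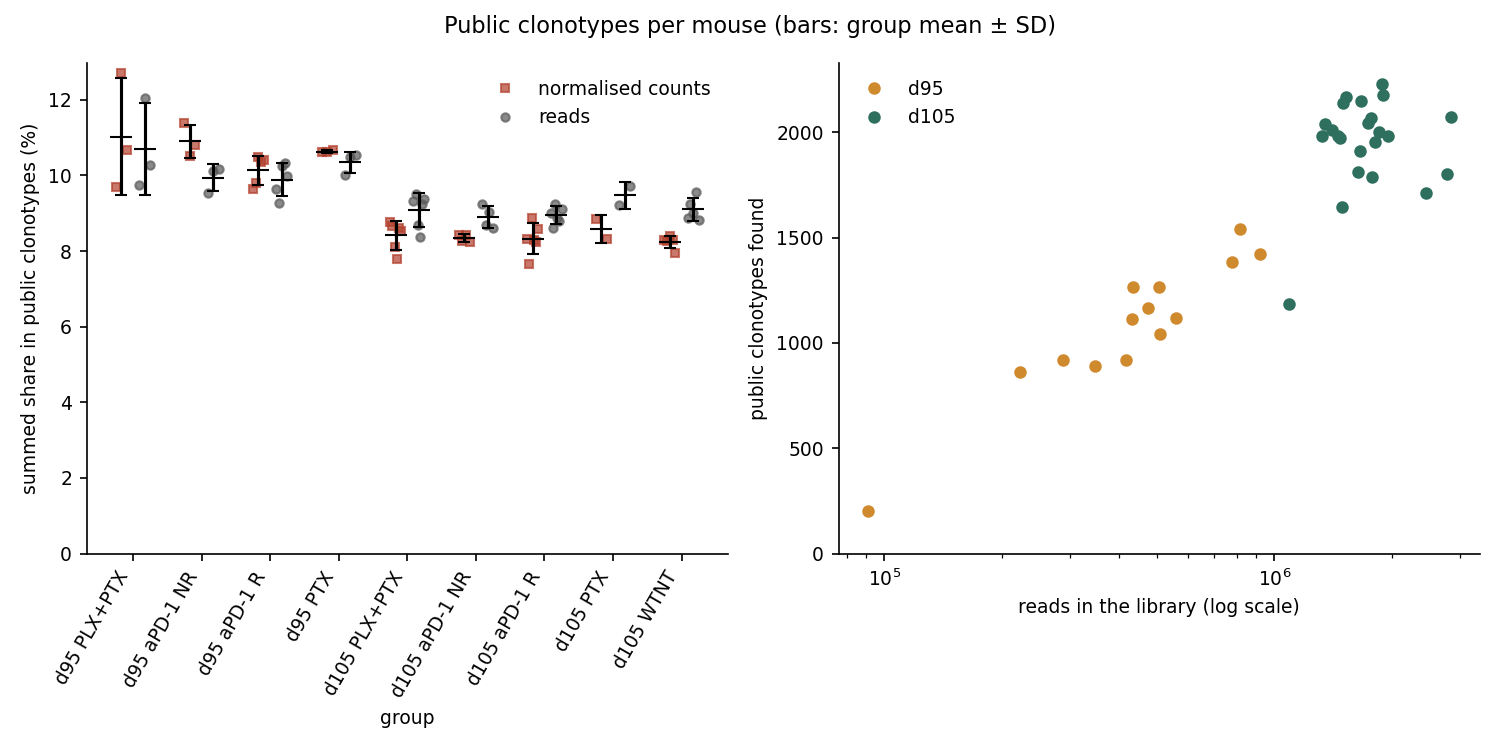
Left, summed share of public clonotypes per mouse in percent of normalised counts (squares) and of reads (circles), by group, with group mean ± SD as black bars. Right, number of public clonotypes found against the reads of the library on a log scale. The d105 groups lie close together, the d95 normalised shares lie above the d105 ones, and the library of 90648 reads holds 201 public clonotypes.

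Length and junction differed little between groups of a day. Group means of public CDR3 length ran from 13.4 to 13.5 residues over the 9 groups, and of the bases between V and J from 6.84 to 7.13. The days did not overlap in the latter, with 6.98 to 7.22 bases in the d105 libraries and 6.74 to 6.96 in the d95 libraries. Forms per public clonotype ran from 1.46 (PTX) to 1.91 (WTNT) at d105 and from 1.21 (NR) to 1.42 (R) at d95. At d105 the range of PTX (1.30 to 1.63) overlapped neither that of WTNT (1.79 to 2.07) nor that of NR (1.68 to 2.10). At d95 the ranges of NR (1.06 to 1.316) and R (1.322 to 1.48) did not overlap, and this NR group includes the library of 90648 reads. PTX was also lowest and WTNT highest in public clonotypes found at d105, with 1416 ± 327 (n = 2) and 2048 ± 66.0 (n = 5). With 222369 reads per library the counts were 1323 ± 298 and 1900 ± 59.1. Both PTX mice (1185 and 1647) lay below every mouse of the other d105 groups, the lowest of which, an R mouse, had 1712. At 222369 reads the PTX mice had at most 1534 and the lowest other mouse, again in R, 1561.

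Single public clonotypes varied far more than their sum. The median coefficient of variation of a public clonotype over 37 libraries was 1.34, and the library that held most of a clonotype held a median of 13.1% of its level summed over libraries per read depth. In 5 public clonotypes 1 library held over 50%.

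Of the 3 receptors found in all 37 libraries, TRBV3 TRBJ2-7 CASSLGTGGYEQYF had at d105 58.8 and 83.3 normalised counts per 1000000 (CPM) in the PTX mice, against 84.5 to 284 in WTNT, 88.3 to 282 in PLX+PTX, 96.3 to 226 in R and 77.4 to 261 in NR mice. The PTX mice overlapped only the NR mice, and limma did not call PLX+PTX against PTX (log2 difference 1.30 ± 0.513, SE, adjusted p = 0.453). TRBV3 TRBJ2-7 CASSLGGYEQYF ran from 39.0 to 728 CPM over all libraries. TRBV19 TRBJ2-7 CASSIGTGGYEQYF had a median of 328 reads per 1000000 reads of a library (RPM) over all libraries. At d105 its group means were 227 to 319 RPM and at d95 377 to 1038. It rested on 1 read in d95 PTX replicate 2, so its place among receptors in every library hangs on that read.

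The highest normalised shares belonged to TRBV4 receptors. TRBV4 TRBJ2-7 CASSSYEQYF averaged 1370 ± 660 CPM (SD, n = 37), followed by TRBV4 TRBJ2-7 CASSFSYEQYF (924 ± 924) and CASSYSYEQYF (798 ± 627), in 31 libraries each. TRBV4 TRBJ2-7 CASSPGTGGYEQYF (501 ± 327) and TRBV4 TRBJ2-4 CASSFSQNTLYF (458 ± 254) completed the first 5. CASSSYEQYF was missing only from d95 NR replicate 1, where no read leaves it under 33.1 RPM. In the other 2 NR mice of that day it had 699 and 685 RPM, against 222 to 547 in R, 130 to 415 in PLX+PTX and 153 to 199 in PTX mice. By reads the order changed. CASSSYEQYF then averaged 381 RPM and came after TRBV13-2 TRBJ2-5 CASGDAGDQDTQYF (858) and TRBV19 TRBJ2-7 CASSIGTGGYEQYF (408).

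TRBV13-2 and TRBV13-1 stand apart from the other V segments of the public set. Both belong to a stretch of the TRB locus known to be deleted in FVB/N mice, the strain of the WTNT group, and they made up 0.0251% and 0.0193% of 1-library clonotypes. TRBV13-2 TRBJ2-5 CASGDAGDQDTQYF lay in 27 libraries (22 of 23 at d105 and 5 of 14 at d95), with 51541 of its 51721 reads in the single nucleotide form printed above. TRBV13-1 TRBJ1-2 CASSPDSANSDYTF lay in 21 (20 at d105 and 1 at d95) and was the only public clonotype with 1 nucleotide form, with 8 bases between V and J that no D accounts for.

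The TRBV13-2 receptor was spread over the groups. At d105 it had 6494 (95% Wilson interval 6366 to 6625), 2290, 808, 506 and 152 RPM in the 5 WTNT mice, and 5485 and 1650 in the PTX mice. In the NR mice it had 2220, 1122, 1094 and 472, in the R mice from 85.9 through a median of 219 to 4990, and in PLX+PTX mice from 0 to 632. At d95 it was absent from the 3 PLX+PTX mice and reached 574 in NR replicate 1, the smallest library. At d105 both PTX mice lay above all 6 PLX+PTX mice, while R and NR mice overlapped, as did MMTV-PyMT and WTNT mice, and limma called none of the differences. The log2 difference on the scale of CPM plus 10 was -4.06 ± 1.34 (SE) for PLX+PTX against PTX (adjusted p = 0.392).

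The TRBV13-1 receptor followed the TRBV13-2 receptor from library to library. Both were found in 21 libraries, 6 had the TRBV13-2 receptor only, 0 the TRBV13-1 receptor only, and 10 neither. The 5 libraries with the most of the one were the 5 with the most of the other, in the same order: WTNT replicate 4, PTX replicate 2, R replicate 3, WTNT replicate 2 and NR replicate 1, all of d105. In them the TRBV13-1 receptor had 584 (95% Wilson interval 547 to 625), 290, 256, 199 and 100 RPM, which was 4.52% to 8.998% of the TRBV13-2 level. Elsewhere the ratio was less even, with 0 in d105 PTX replicate 1, where the TRBV13-2 receptor had 1650, and 55.7% in d105 PLX+PTX replicate 1. This likeness was noticed after the values were seen. Whether a template or reads shared between libraries gave these sequences was not tested, so the levels of both receptors, and their place among public receptors, may not count rearrangements made in each mouse.

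**Figure D5:**
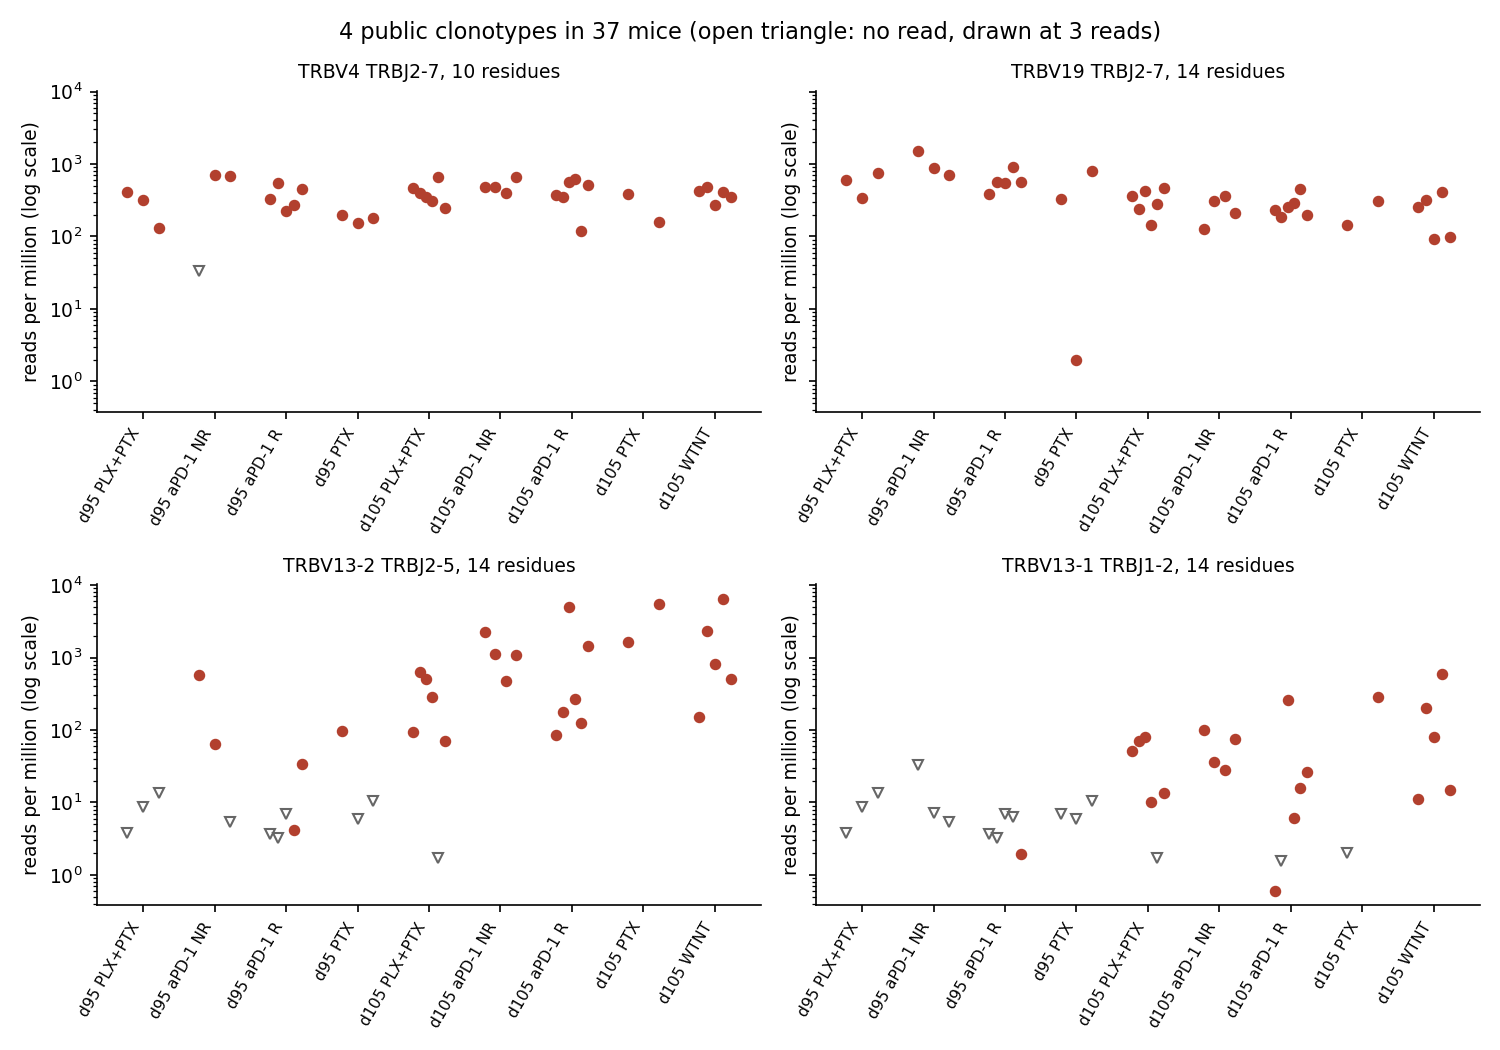
Reads per 1000000 reads (RPM) on a log scale of 4 public clonotypes in each mouse, by group, named by segments and CDR3 length. Filled circles are libraries with a read and open triangles are libraries with none, drawn at 3 reads. The TRBV4 receptor reaches 699 at most, while the TRBV13-2 receptor spans from 0 to 6494 and the TRBV13-1 receptor from 0 to 584.

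Limma called few single public clonotypes as different between groups. The test was limma on log2 of normalised CPM plus 10 over clonotypes with a read in 50% or more of a day's libraries, with Benjamini-Hochberg adjustment over all of them. At d105, 2544 of the 2554 public clonotypes were among the 5242 tested. Limma called 0 in each of the 4 comparisons at an adjusted p under 0.05 (background 0% of all tested). At an unadjusted p under 0.05 it called 158 for R against NR (6.21%, background 5.51%), 134 for aPD-1 against PLX+PTX (5.27%, background 4.94%), 300 for PLX+PTX against PTX (11.8%, background 9.92%) and 155 for MMTV-PyMT against WTNT (6.09%, background 5.28%). Each share lay above its background, a difference that was not tested. The background covers all clonotypes tested, the public ones among them, which brings it closer to the public share. The median log2 difference of the public clonotypes was 0.19 for PLX+PTX against PTX, where all tested had 0.20, and was within 0.05 of 0 in the other 3. edgeR also called 0 in the 4 (background 0%). DESeq2 called 9 (background 0.42%), 2 (background 0.153%), 426 (background 14.1%) and 3 (background 0.248%), which were 0.354%, 0.0786%, 16.7% and 0.118% of the public clonotypes. The 426, all higher in PLX+PTX, come from the comparison with 2 PTX mice.

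At d95, 893 public clonotypes were tested among 964, and the other 1661 public clonotypes were in under 50% of that day's libraries. Limma called 2 for R against NR (background 0.207%), 0 for aPD-1 against PLX+PTX (background 0%) and 1 for PLX+PTX against PTX (background 0.104%). At an unadjusted p under 0.05 the counts were 73 (background 8.2%), 57 (6.64%) and 55 (6.12%). The background is nearly the same set, since 893 of the 964 tested were public. The median log2 difference was 0.52 for R against NR, both for the public clonotypes and for all tested. edgeR called 0 in the 3 (background 0%). DESeq2 called 67 (7.88%, background 8.16%), 15 (1.97%, background 1.93%) and 16 (2.26%, background 2.33%) of the public clonotypes to which it gave an adjusted p.

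TRBV5 TRBJ2-7 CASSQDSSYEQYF had 143, 173, 164, 467 and 96.8 RPM in the 5 R mice of d95 and no read in the 3 NR mice. The mean of the R mice was at least 13.7-fold that of the NR mice, with the NR mice set at 3 reads per library. Single mice lay closer, since the lowest R mouse had 96.8 RPM and 3 reads are 33.1 RPM in the smallest NR library. Limma's log2 difference was 5.12 ± 0.846 (SE, adjusted p = 0.00365). It lay in all 3 PLX+PTX mice (208 to 319) and all 3 PTX mice (122 to 187) of d95. These libraries alone are under 50% of the 14 of d95, so it passed the filter only with R mice, in which it is high. Its p-values are therefore not given as support. At d105 it lay in all 23 libraries, and the difference of R and NR there was 0.03 ± 0.365 (limma adjusted p = 0.999).

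TRBV26 TRBJ2-7 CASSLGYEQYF had 110, 199, 76.2, 453 and 203 RPM in the d95 R mice and no read in the NR mice. By the same ratio of means it was at least 13.7-fold higher in R. It had 229, 182 and 135 RPM in the PLX+PTX mice and no read in the 3 PTX mice of d95, a ratio of means of at least 23.5. It is the other clonotype called for R against NR and the one called for PLX+PTX against PTX. Its 8 d95 libraries are all of the R and PLX+PTX groups, so it passed the filter only through groups in which it is high and had to differ, and its p-values are not given as support. At d105 it was in 6 of 6 PLX+PTX mice and in neither PTX mouse, with a log2 difference of 4.22 ± 1.12 (SE) that limma did not call (adjusted p = 0.296), while R and NR mice of that day overlapped. Leaving out any 1 of the 6 mice ended the d95 call for PLX+PTX against PTX (limma adjusted p 0.0854 to 0.159).

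The call of TRBV5 TRBJ2-7 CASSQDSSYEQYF held without any 1 of the 8 R and NR mice of d95 (limma adjusted p 0.00601 to 0.0350). The filter was not applied anew in these fits, so the limit given above holds for them too. The call was lost with edgeR (adjusted p = 0.230) and with a pseudocount of 1 in place of 10 (limma adjusted p = 0.0935). The fitted log2 differences of both clonotypes depend on the pseudocount, since 1 side has no reads.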

How the data were processed

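T cell receptor beta rearrangements were amplified from lymph node DNA of 37 mice and sequenced as paired reads, per the labels. In the deposited tables, per the file headers, every nucleotide CDR3 has its segments, a clone count in counts of reads, and 2 further columns, the normalized and the nb clone count, which the authors rescaled from the clone count and deposited as whole-number scores. Both scores rescale V and J pairs against each other. The genome build, the aligner and the caller were not given in the sources used here.

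Entries were merged by V, J and amino acid CDR3. Junction bases and trimming came from the deposited reference points, with overlaps of V and J set to 0. Levels are per 1000000 normalised counts (CPM) or per 1000000 reads. The d105 and d95 libraries were fitted separately on log2(CPM + 10) by limma 3.58.1 (R 4.3.3), for clonotypes in at least 50% of libraries. Alternatives were edgeR 4.0.16 and DESeq2 1.42.0 on reads, other filters, pseudocounts, memberships and libraries left out. On simulated data limma recovered 28.5% of 4-fold and 97.5% of 16-fold changes for R against NR at d105 (5242 clonotypes), and 35.5% and 96.5% at d95 (964 clonotypes). Beside 200 changed clonotypes it made 2 and 20 false calls at d105, and 3 and 11 at d95. The simulated counts had 1 fixed spread, and only clonotypes at or above the median mean were changed. Real public clonotypes had a median coefficient of variation of 1.34, so these rates need not hold for them.

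The labels name no molecular identifiers, so reads are not independent molecules, and intervals and the limit of 3 reads for a clonotype with none cover counting error only. Each mouse gave 1 library, and replicate numbers follow the order of deposition. The public clonotypes, the lists and the naming rule were chosen with earlier results of these data known. Named were clonotypes in all 37 libraries, the 5 with the highest mean normalised share, 3 of the longest and 3 of the shortest (ties by more libraries), the 5 with the most forms, those with 1 form, those on segments deleted in FVB/N mice, those limma called, and the 2 most abundant in exactly 19 and in exactly 18 libraries. Segments named were the 5 TRBV and 5 TRBJ with the largest public share, and the 2 highest and 2 lowest ratios to the 1-library share among segments with at least 1% of 1-library clonotypes.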

Additional observations from a re-analysis of the deposited data

How the results depend on the processing

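With public set at 15 or 28 libraries instead of 19, the number of public clonotypes was 4971 or 427, and the TRBJ2-7 gap to 1-library clonotypes was 12.4 or 22.4 percentage points. At 28 libraries the length gap was -0.940 residues and the gap in forms 1.17. Weighted by reads they were -0.850 and 1.08. Leaving out each library in turn, with the threshold kept at 19, gave 2235 to 2533 public clonotypes, length gaps of -0.819 to -0.798 residues, gaps in forms of 0.640 to 0.649, in bases between V and J of -4.56 to -4.49 and in TRBJ2-7 of 14.0 to 14.9 points, each with its direction kept. Membership without a library's own vote gave the same shares by construction.

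For the summed share, R minus NR at d95 was -0.0528 points in reads and -0.0314 with 28 libraries. PLX+PTX minus PTX at d105 was -1.33 points of clonotypes after thinning. Without each library in turn, the differences ran from -0.125 to 0.118 for d105 R minus NR, -0.203 to -0.00572 for aPD-1 minus PLX+PTX, -0.438 to 0.0958 for PLX+PTX minus PTX and 0.0752 to 0.190 for MMTV-PyMT minus WTNT. At d95 they ran from -0.960 to -0.525, -1.27 to 0.245 and -0.455 to 1.06 for R minus NR, aPD-1 minus PLX+PTX and PLX+PTX minus PTX. The sign changed in d105 R minus NR and PLX+PTX minus PTX and in the last 2 at d95.

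Calls of limma became 1 with reads as CPM for d105 aPD-1 against PLX+PTX, and 2 with a filter of 80% of libraries, or without PTX replicate 1, for d105 PLX+PTX against PTX (0 to 2 without each library). They became 0 at d95 for R against NR and for PLX+PTX against PTX with a pseudocount of 1 and with edgeR. They also became 0 with the 80% filter, which removes both called clonotypes, present in 11 and 8 of 14 libraries, before the test. With 28 libraries they became 1 and 0, since TRBV26 TRBJ2-7 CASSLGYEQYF, in 26, is then no longer public. Without each library they were 2 for R against NR and 0 for PLX+PTX against PTX at d95. DESeq2 gave 9, 2, 426 and 3 at d105 (0.42%, 0.153%, 14.1% and 0.248% of all tested) and 67, 15 and 16 at d95 (8.16%, 1.93% and 2.33% of all tested). Other causes were not tested. A term for the range of the mouse number in the labels left 0 calls in the 3 d105 comparisons it could enter. No paired analysis was possible because replicate numbers follow the order of deposition. Depth limits presence most in the d95 libraries, where no read allows up to 33.1 reads per 1000000 in the smallest.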
